A study of Mus musculus with 3 samples.

Results

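Sox5 and Sox6 are the paired SoxD transcription factors of the oligodendrocyte lineage, and the regions of the Nkx2.2 binding table assigned to either gene are described here. A region was a member where the list of genes that the authors gave it names Sox5 or Sox6 exactly, a rule that uses no measured value. This gave 46 of the 37271 regions, 15 at Sox5 and 31 at Sox6, and no region belonged to both. The table comes from chromatin immunoprecipitation and sequencing (ChIP-seq) of Nkx2.2 with a monoclonal antibody, in cells of C57BL/6 mice, with coordinates in mouse build mm9. The OPC library was made from proliferating oligodendrocyte progenitor cells, taken at postnatal day 7 from the cortex with an antibody to PDGFRA and grown without serum in PDGF-AA (10 ng/mL), NT-3 (1 ng/mL) and CNTF (10 ng/mL). The OL library was made from oligodendrocytes that were derived from such progenitors in culture by taking away PDGF-AA and adding the thyroid hormone T3 (40 ng/mL) for 48 h. Cells for both libraries were isolated and cultured at one time, no transgene or mutation is given for either state, and how many animals were pooled is not given in the sources used here.

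Each state has 1 library, with 1.5e7 cells listed for each, so every difference below lies between 2 libraries and has no replicate check. An input library is also part of the series and was not analysed here. Depth is unknown, because the deposited values are signal and not read counts. The libraries measure binding and hold no expression values, so the labelled cell states were not checked against marker expression.

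SoxD proteins bind DNA through an HMG box and pair with each other through a coiled coil, and they carry no activation domain of their own. In the oligodendrocyte lineage Sox5 and Sox6 are known to hold back specification and terminal differentiation, in part by acting against the SoxE factors Sox9 and Sox10, and their levels fall as progenitors mature. Nkx2.2 is a homeodomain factor, often a repressor, that is needed for progenitors to become oligodendrocytes on time. The series asked where this factor binds in each state, and the regions at Sox5 and Sox6 show where it was found at these genes.

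Both genes run on the minus strand, and their starts in the deposited table lie at position 144158000 of chromosome 6 for Sox5 and 123174561 of chromosome 7 for Sox6, as worked out from the deposited distances. RefSeq start windows of build GRCm38.p6 were set beside them to show the sequence at the Sox6 start, where the largest group of Sox6 regions lies. The deposited Sox6 start lies 62333 bp from the start of the neighbouring gene 1110004F10Rik. One of the 6 RefSeq windows of Sox6 has the same spacing of 62333 bp to the RefSeq start of that neighbour, and another lies 7697 bp farther upstream. The 250 bases before each of these starts are shown because regions lie on both sides of them, read 5′ to 3′ on the minus strand. By these spacings neither window overlaps a region. The regions nearest the matching start begin 160 bp inside the gene and 1413 bp upstream. The next region beyond the farther window begins 7979 bp upstream. Capitals mark the letters AAGTG, the core that Nkx2 homeodomain factors prefer, and do not mark places where Nkx2.2 was called.
Sox6 window at the matching start (GRCm38.p6, chr7:116031048-116031297): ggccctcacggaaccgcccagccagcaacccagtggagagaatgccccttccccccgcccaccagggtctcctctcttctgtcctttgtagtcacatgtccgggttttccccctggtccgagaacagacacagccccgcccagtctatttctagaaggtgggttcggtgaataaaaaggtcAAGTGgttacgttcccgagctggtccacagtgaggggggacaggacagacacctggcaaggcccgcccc
Sox6 window at the upstream start (GRCm38.p6, chr7:116038745-116038994): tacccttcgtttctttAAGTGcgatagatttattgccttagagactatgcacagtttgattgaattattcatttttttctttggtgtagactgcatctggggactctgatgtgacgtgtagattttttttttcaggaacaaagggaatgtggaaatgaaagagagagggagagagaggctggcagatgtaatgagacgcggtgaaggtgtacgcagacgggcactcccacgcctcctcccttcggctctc

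AAGTG was searched on both strands, as AAGTG and CACTT, and each window held 1 match. Of 32851 RefSeq windows of the same length, 40.7% held a match, so a match is common in such windows. The core of SoxD sites, ACAAT or ATTGT, had no match in either window, against 27.7% of all windows with one. The matching window was 60.8% G or C with 10 CpG pairs, and the upstream window 45.2% with 9. The single RefSeq window of Sox5 did not lie at the deposited start, since its spacing to the 2 RefSeq starts of the neighbouring gene Bcat1 was 1129051 and 1101706 bp, against 866603 bp in the deposited table, and it is not shown.

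Nkx2.2 was called at both genes in both states, over a span of 567158 bp at Sox6 and 364151 bp at Sox5 between the first and last region. Sox6 had 17 regions with an OPC call and 26 with an OL call, and 12 had both. Sox5 had 7 with an OPC call and 13 with an OL call, and 5 had both. A call is a region in which the authors' peak caller placed an interval for that library. Over all regions the shares were 38.6% for an OPC call, 85.3% for an OL call and 23.8% for both, and over regions inside a gene 36.3, 86.2 and 22.5%. Regions with an OPC call alone numbered 5 at Sox6 and 2 at Sox5, beside 14.7% of all regions and 13.8% of those inside a gene. Regions with an OL call alone numbered 14 at Sox6 and 8 at Sox5, beside 61.4 and 63.7%. The share called in OPC was 54.8% at Sox6 (95% exact Clopper-Pearson interval 36.0 to 72.7%) and 46.7% at Sox5 (21.3 to 73.4%), and both intervals include the share over all regions. These intervals cover counting error over regions only. The share called in both was 38.7% at Sox6 (21.9 to 57.8%) and 33.3% at Sox5 (11.8 to 61.6%), and both of these intervals include the 23.8% as well. With OL calls limited to the 14370 strongest, the number of OPC calls in the table, Sox6 had 17 OPC calls and 13 OL calls and Sox5 had 7 and 4, so which state had more calls depends on how many OL calls the table holds. Of the OPC calls, 70.6% at Sox6 and 71.4% at Sox5 were shared with OL, beside 61.8% over the table, and of the OL calls 46.2% and 38.5% were shared with OPC, beside 27.9%.

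**Figure D1:**
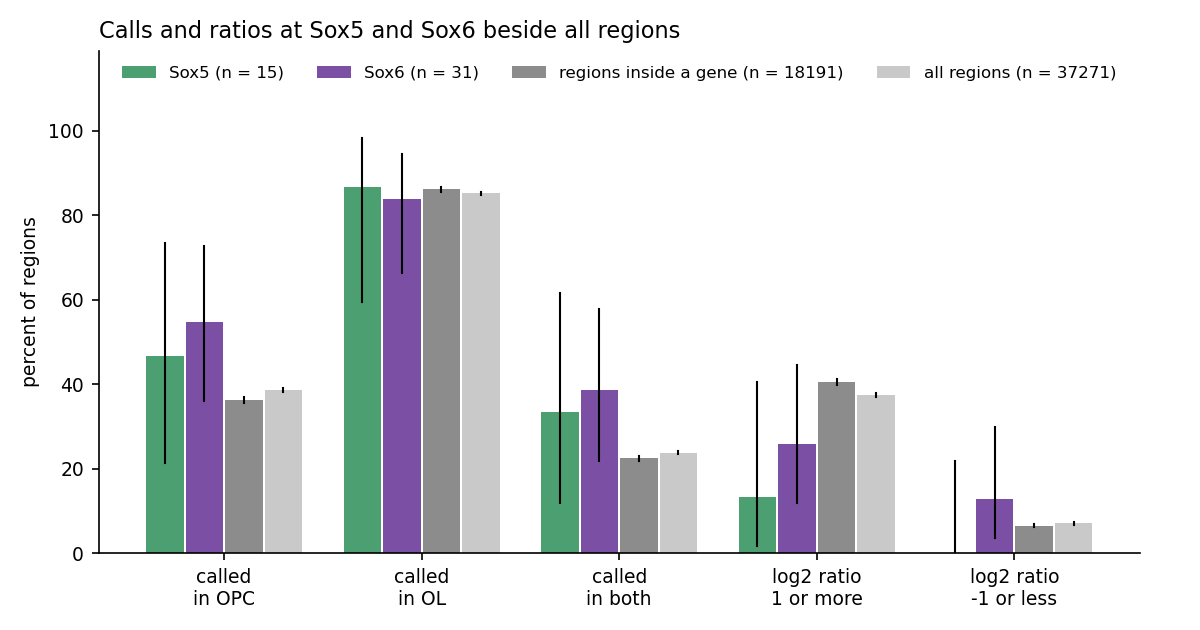
Percent of regions called in OPC, called in OL, called in both, and with a log2 ratio of OL to OPC signal of 1 or more or of -1 or less, for Sox5, Sox6, all regions inside a gene and all regions. Bars start at 0 and black lines are exact 95% binomial intervals over regions. The lines of Sox5 and Sox6 are wide, and for OPC calls they include the 38.6% of all regions.

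Sox6 was among the genes with the most regions in the whole table. Its 31 regions put it at rank 3 of 14473 genes with an assigned region, after Opcml with 46 and Tnr with 35, while the median gene had 2. Sox5, with 15, had rank 80. Long genes can hold more regions, and gene length in the build of the files was not used, so these ranks are not corrected for it. Among the 293 genes with 10 regions or more, the share of regions called in OPC was lower than that of Sox6 in 249 genes and lower than that of Sox5 in 196. The middle value of that share over these genes was 39.1%, with quartiles of 28.6 and 50.0%. For OL calls both genes lay near the middle value of 86.7%, with 83.9% at Sox6 and 86.7% at Sox5.

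The signal of a region is the average that the authors deposited for it, in units whose scaling between libraries is not given in the sources used here. Over the Sox6 regions it ranged in OPC from 0 to 14.1 with a median of 3.69, and in OL from 0 to 10.4 with a median of 5.54. Over the Sox5 regions it ranged in OPC from 0 to 11.1 with a median of 3.00, and in OL from 2.73 to 12.2 with a median of 4.65. All regions together had medians of 3.00 in OPC and 5.0 in OL, and the strongest reached 68.8 and 60.1, well above the highest of either gene. Each region's change was taken as log2((OL + 1) / (OPC + 1)), where the added 1 is a pseudocount in signal units that draws weak regions toward 0. Its median was 0.57 at Sox6 and 0.60 at Sox5, against 0.74 over all regions and 0.80 over regions inside a gene. With the median of all regions set to 0, the medians became -0.16 at Sox6 and -0.13 at Sox5, so the direction for either gene depends on how the libraries are scaled. The counts at 1 or more and at -1 or less, given next, were then 1 and 7 at Sox6 and 2 and 2 at Sox5. Of all regions, 13.2% and 17.5% were then past these limits.

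OL signal was higher than OPC signal at 24 of 31 Sox6 regions and 13 of 15 Sox5 regions, where 77.4% of all regions and 78.8% of those inside a gene have a ratio above 0. The ratio reached 1 or more in 8 Sox6 regions and 2 Sox5 regions, together 10 of 46 or 21.7% (10.9 to 36.4%), beside 37.5% of all regions and 40.5% of those inside a gene. Taken singly, the share was 25.8% at Sox6 (11.9 to 44.6%) and 13.3% at Sox5 (1.66 to 40.5%). Both of these intervals include the 37.5%. A ratio of -1 or less was seen at 4 Sox6 regions and 0 Sox5 regions, together 8.70% (2.42 to 20.8%), beside 7.03% of all regions and 6.46% of those inside a gene. The share of 32 regions that lay between these limits was 69.6% (54.2 to 82.3%), against 55.4% over the table. Of the Sox6 counts, 2 sit at the limits themselves, with 1.00 for a region 226860 bp into the gene and -1.0003 for one 8279 bp upstream.

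**Figure D2:**
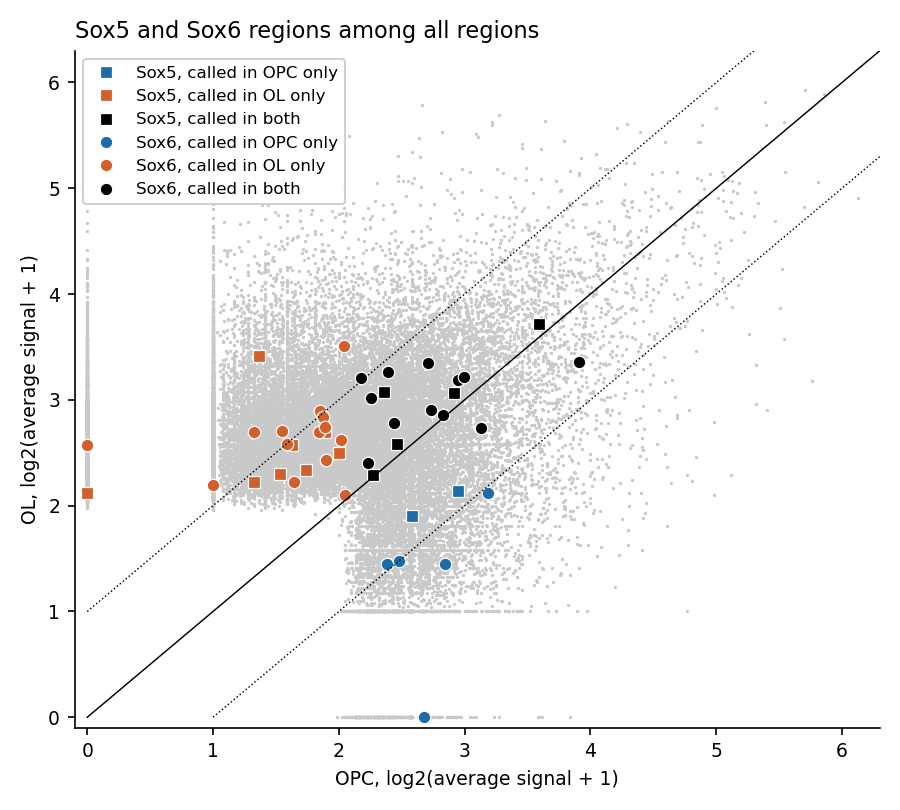
OPC signal on the x axis and OL signal on the y axis, each as log2(average signal + 1), for all 37271 regions in grey, Sox5 regions as squares and Sox6 regions as circles, coloured by call. The solid line marks equal signal and the dotted lines a log2 ratio of 1 and -1. Of the 46 regions, 32 lie between the dotted lines.

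The strongest Nkx2.2 region at Sox5 was high in both states and was the nearest to the start of those inside the gene. It is 771 bp long at chr6:144146083-144146854, 11532 bp into the gene, with an average signal of 11.1 in OPC and 12.2 in OL and highest signals of 23 and 42. Over the table, 991 regions had more OPC signal and 1968 more OL signal, which puts it at percentile 97.3 and 94.7. It held the highest value of the gene in each library, and its log2 ratio was 0.13. The next values in OPC were 6.71 at 43039 bp into the gene, 6.54 at 152342 bp, 5.0 at 27864 bp and 4.50 at 163932 bp. In OL they were 9.63 at 39401 bp, 7.44 at 111075 bp, 7.39 at 152342 bp and 5.50 at the start. Apart from the strongest region, the 5 highest regions of the libraries thus had 1 place in common, at 152342 bp.

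At the start of Sox5 the table lists 1 region, called in OL only. It lies at chr6:144157961-144158530 with its middle 245 bp upstream, and its signal was 2.71 in OPC against 5.50 in OL (log2 ratio 0.81). It runs from 39 bp inside the gene to 530 bp upstream, so it covers the deposited start. No CpG island was assigned to it or to any other Sox5 region, while 18.0% of all regions have one. It is also the only Sox5 region to which the authors assigned a promoter.

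Neighbouring Sox5 regions went opposite ways about 40 kb into the gene. The region at 43039 bp (chr6:144114747-144115175) had 6.71 in OPC and 3.42 in OL and was called in OPC only. The region at 39401 bp (chr6:144118276-144118923), 3638 bp away, had 1.57 in OPC and 9.63 in OL and was called in OL only. Their log2 ratios were -0.80, the lowest of Sox5, and 2.05. The other Sox5 region called in OPC only, at 27864 bp, had 5.0 in OPC and 2.73 in OL, so both lie between the start and 50 kb into the gene.

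Inside Sox5, in steps of few regions, the highest signals were lower farther in and the median ratio was larger. In steps of 100 kb from the start, the highest OL signal was 12.2, 7.44, 4.06 and 3.94. The median log2 ratio was 0.13, 0.50, 0.60 and 0.77, over 5, 5, 3 and 1 regions. Ratios in the first step ran from -0.80 to 2.05. The region over the start, left out of these steps, had 0.81, more than any of the medians. The region at 97635 bp had 1.50 in OPC and 3.67 in OL (log2 ratio 0.90) and was called in OL only. In the stretch from 100 to 200 kb, all 5 regions had an OL call and 3 an OPC call, and the highest signal was 6.54 in OPC and 7.44 in OL. There the region at 141818 bp had 2.08 and 4.96 (0.95), called in OL only. That at 163932 bp had 4.50 and 5.0 (0.13), called in both. From 200 to 300 kb there were 3 regions, all called in OL and 1 in OPC, none above 4.06 in either library. The region at 250267 bp was listed at 0 in OPC and had 3.33 in OL, which gave a log2 ratio of 2.12 that rests on the pseudocount. A fold cannot be given against a value listed at 0. Beyond it lay a region at 267905 bp with 3.82 and 3.89, the most even of the gene, and the last one at 363906 bp with 1.90 and 3.94. The 2 ends of that interval, 267905 and 363906 bp, bound the longest stretch of Sox5 without a region, 96001 bp between middles.

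**Figure D3:**
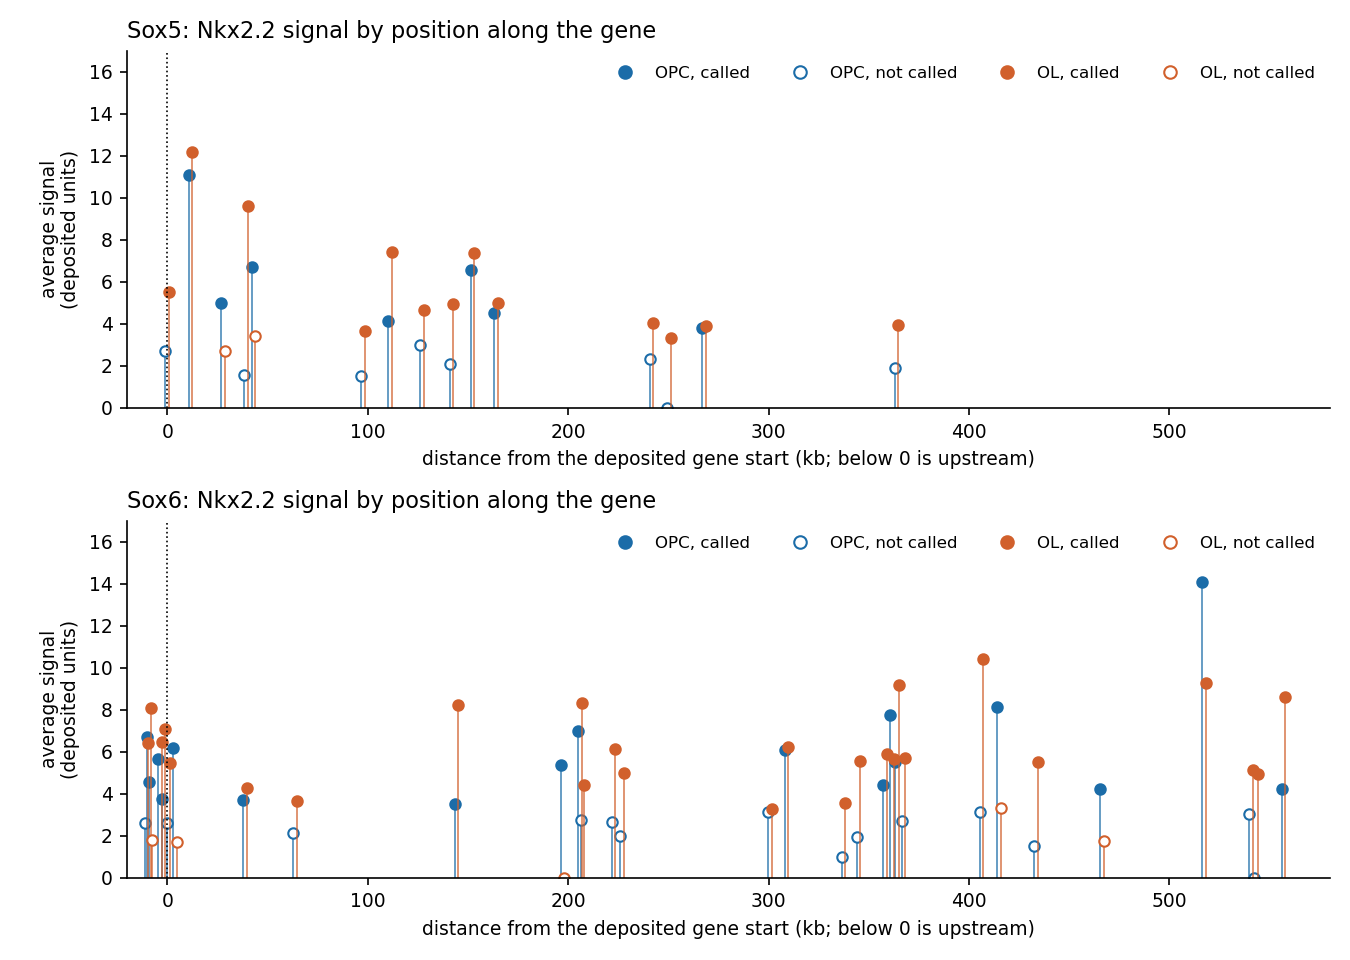
Average Nkx2.2 signal in deposited units by distance of the region's middle from the deposited gene start in kb, for Sox5 in the upper panel and Sox6 in the lower. Blue is OPC and orange is OL, drawn slightly apart, and filled points mark a call in that library. The tallest Sox5 pair stands 11532 bp into the gene and the tallest OPC point of Sox6 517210 bp into it.

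The strongest Sox6 region lay far from the start and was higher in OPC. It is 664 bp long at chr7:122657019-122657683, 517210 bp from the start, with 14.1 in OPC and 9.29 in OL, highest signals of 37 and 24, and a log2 ratio of -0.55. In the whole table, 521 regions had more OPC signal, which puts it at percentile 98.6 in OPC, and 4247 had more in OL, percentile 88.6. The OL library had its own highest Sox6 value at another place, 10.4 at 406287 bp (chr7:122767430-122769119), where OPC had 3.11 and no call. That region is also the longest of either gene, at 1689 bp.

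The other high Sox6 regions were spread over the gene and mostly called in both states. In OPC they were a region at 415086 bp with 8.11, one at 361445 bp with 7.74, one at 205805 bp with 6.97 and one 9089 bp upstream with 6.69. All of these but the first were called in both libraries. In OL the next were 9.29 at 517210 bp, 9.19 at 363983 bp, 8.625 at 556886 bp and 8.30 at 205805 bp, each of them called in both. The regions at 517210 and 205805 bp thus stood among the 5 highest of the gene in OPC and in OL. Regions called in both have more than 1 interval joined in them and were longer, 888.5 bp at the median for Sox6 against 601 bp for those called in OPC only and 639 bp for OL only.

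Around the Sox6 start, 7 regions lay within 10 kb of the next one, over 14036 bp from 10272 bp upstream to 3764 bp inside the gene. This was the largest such group at either gene. Its members were also assigned to neighbours, 1110006G14Rik (now named Sox6os, an antisense gene of Sox6) and in 6 cases EG668479, so which of these genes a region belongs to is the authors' assignment. Of the 7, 5 were called in OPC and 5 in OL.

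No region covered the deposited Sox6 start. The nearest, called in OL only (chr7:123173644-123174401), runs from 160 to 917 bp inside the gene with its middle 539 bp in, and its signal was 2.59 in OPC against 5.48 in OL (log2 ratio 0.85). Its next neighbour inside the gene, 3764 bp in, had 6.17 in OPC and 1.73 in OL and was called in OPC only (-1.39). The start-proximal regions thus differed in direction 3225 bp apart.

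On the upstream side of Sox6, 2 regions carried a CpG island, the only ones at either gene. They lay 1908 bp upstream (chr7:123175974-123176964) with 3.77 in OPC and 7.10 in OL, and 3578 bp upstream with 5.63 and 6.47, and both were called in both libraries. Farther out, the region 8279 bp upstream (chr7:123182540-123183141) had 4.58 in OPC and 1.79 in OL and was called in OPC only. The one 9089 bp upstream (chr7:123183175-123184126), whose edge is next to it, had 6.69 and 8.10 and was called in both, and its highest signals of 24 and 28 were the largest of the group in each library. The last, 10272 bp upstream, had 2.60 and 6.43 and an OL call only. In the RefSeq spacing the upstream start shown above falls 7697 bp before the matching one, nearer to the start than these last 3 regions.

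Of the 31 regions assigned to Sox6, those upstream included, 24 had a neighbour within 10 kb, and of the 15 assigned to Sox5 4 had one. The median distance between neighbouring middles was 8702 bp at Sox6 and 14056 bp at Sox5. A group of 4 lay between 358050 and 367275 bp, all called in OL and 3 in OPC. Along it the OPC signal was 4.41, 7.74, 5.53 and 2.71, and the OL signal 5.89, 5.65, 9.19 and 5.68. OPC was thus highest in the second region, the only one of the 4 with a ratio below 0 (-0.40), and OL in the third. Counted in steps of 100 kb from the start, the step from 300 to 400 kb held 8 regions, and all 8 were called in OL.

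At 406287 and 415086 bp, 8799 bp apart, a pair of Sox6 regions went opposite ways. The first had 3.11 in OPC and 10.4 in OL, called in OL only, with a log2 ratio of 1.47. The second (chr7:122759036-122759915) had 8.11 and 3.35, called in OPC only, with a ratio of -1.07. They are the highest OL region and the second highest OPC region of the gene. Over both genes, 3 pairs of neighbours within 10 kb had one region called in OPC only and the other in OL only, 1 of 2 such pairs at Sox5 and 2 of 16 at Sox6, and of all 9177 such pairs 14.1% did. Ratios of opposite sign were seen at 1 of 2 pairs at Sox5 and 7 of 16 at Sox6, beside 30.1% of all such pairs.

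A group of 3 Sox6 regions near 200 kb was assigned by the authors to another gene as well, LOC100042779. A pair of its members lie close together, with 6.97 in OPC and 8.30 in OL at 205805 bp (chr7:122968139-122969374), called in both, and 2.73 and 4.40 at 207140 bp, called in OL only. The remaining one, at 197199 bp (chr7:122977147-122977577), had 5.39 in OPC and was listed at 0 in OL. It is the only region of either gene listed at 0 in OL, where 0.859% of all regions are, and its log2 ratio of -2.67 rests on the pseudocount too.

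The largest ratios of Sox6 toward OL were seen at regions without an OPC call. A region at 543191 bp was listed at 0 in OPC and had 4.95 in OL, which gave a log2 ratio of 2.57, a value that rests on the pseudocount. At the pseudocount of 1 it was followed by the region at 406287 bp given above, by 433373 bp with 1.50 in OPC and 5.50 in OL (1.38), by 337324 bp with 1.00 and 3.57 (1.19), and by 344937 bp with 1.93 and 5.54 (1.16). The OL signal of these 5 ranged from 3.57 to 10.4. Toward OPC, after the regions at 197199, 3764, 415086 bp and 8279 bp upstream, came 466451 bp with 4.23 in OPC and 1.74 in OL (-0.93). These 5 are the Sox6 regions called in OPC only.

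Among Sox6 regions called in both, the largest ratios were at 144358 and 556886 bp. The region at 144358 bp had 3.53 in OPC and 8.23 in OL. Its ratio of 1.03 was the highest of the regions called in both at either gene. The last region of the gene, at 556886 bp, had 4.23 and 8.625, also called in both. Between 63607 and 144358 bp lay the longest stretch of Sox6 without a region, 80751 bp. Regions called in both had ratios from -0.55 to 1.03 at Sox6 and from 0.02 to 0.72 at Sox5. Their medians of 0.23 and 0.13 lie beside 0.24 over all 8879 regions called in both.

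OPC and OL signal were weakly related across the regions of each gene. Spearman's rho was 0.21 over the 31 Sox6 regions and 0.23 over the 15 Sox5 regions, beside 0.03 over all regions. These are descriptions across regions of the same 2 libraries, each region holding a call in at least 1 of them.

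Upstream of Sox5 the table lists a long run of regions with no assigned gene. Between the Sox5 start and Bcat1, the next gene with a region on that side and the next protein-coding gene in the RefSeq order, 18 regions lay from 46872 to 777372 bp before the start. Sox5 is known to have longer transcripts that begin farther upstream, and whether these regions fall in them was not tested. Of the 18, 16 had an OL call, 3 an OPC call and 1 had both, where 81.0, 40.5 and 21.5% of the 10929 regions without an assigned gene in the table do. Their median signal was 2.07 in OPC and 5.27 in OL, and their median log2 ratio was 1.39, with 11 at 1 or more and 0 at -1 or less. Over the 10929 regions the median ratio was 0.74, with 39.9% at 1 or more and 10.4% at -1 or less.

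The region nearest the start in that run was the one called in both. It lay 46872 bp upstream (chr6:144204542-144205203) with 7.50 in OPC and 11.6 in OL, more in each library than any Sox5 region but the strongest. Others were high in OL alone, with 10.45 at 121262 bp upstream against 3.13 in OPC, and 9.39 at 351030 bp upstream against a value listed at 0. The highest OL value of the run, 16.5, lay 752374 bp upstream (chr6:144910000-144910749), where OPC had 4.83 without a call. That is above every OL value inside Sox5 or Sox6.

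**Figure D4:**
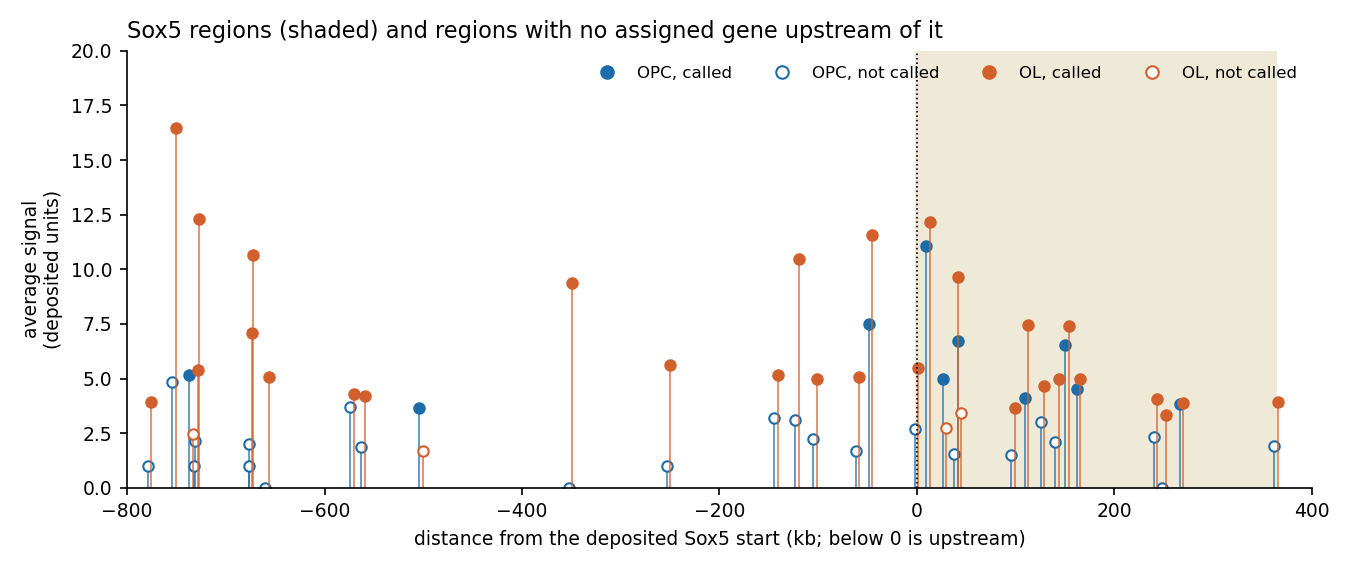
Average Nkx2.2 signal in deposited units by distance from the deposited Sox5 start in kb, for the 15 Sox5 regions (shaded stretch) and the 18 regions without an assigned gene between Sox5 and Bcat1. Blue is OPC, orange is OL, drawn slightly apart, and filled points mark a call. Most upstream OPC points are open, and the highest OL point, 16.5, stands 752374 bp upstream.

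Among the Sox family, Sox5 and Sox6 held most of the regions. Of 20 family members 12 had a region, with 73 regions in all, of which 46 belong to these 2 genes. A call in OPC was seen at 10 of the 12 and in OL at 11, where 57.3% and 94.8% of all genes with a region have one. The third SoxD gene, Sox13, had no region in the table. The SoxE genes, whose products act with and against SoxD, had few: Sox8 and Sox10 had 3 each and Sox9 had 1. These 3 genes are short, and counts are not corrected for length.

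Near their starts, 4 of the 5 SoxD and SoxE genes with a region had an OL call alone, where 60.5% of all genes do at the region nearest the start. The exception was Sox9, the glial specification factor, with 3.67 in OPC against 3.25 in OL and an OPC call alone. Sox10, needed for terminal differentiation, had 1.83 and 6.98, and Sox8 had 2.56 and 4.91, both called in OL only, as the regions nearest the starts of Sox5 and Sox6 were. Of the rest, Sox2, a stem cell factor, had 5 regions, 4 of them called in OPC and 4 in OL, and Sox4 had 4. At the region with the highest average signal of each gene in either library, 1 of the 12 had a log2 ratio of 1 or more, Sox18 with 1.00 in OPC against 15.7 in OL downstream of it, and 1 had -1 or less, Sox8 with 6.61 and 1.56. Over all genes, 34.7% reached 1 and 4.19% reached -1 at that region, and the median was 0.21 for the family against 0.73 for all genes.

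**Figure D5:**
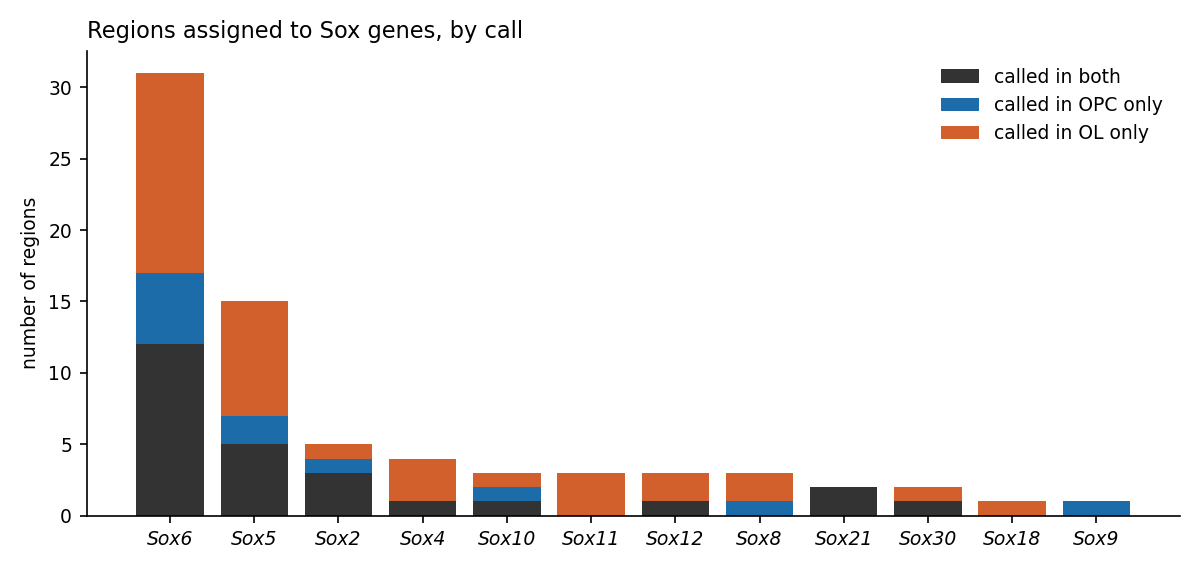
Number of regions assigned to each Sox gene that has one, split into those called in both libraries, in OPC only and in OL only. Sox6 with 31 and Sox5 with 15 stand above the others, none of which has more than 5.

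Genes that act with SoxD factors or are known to be controlled by them mostly had a call in OL, as most genes of the table do. Of 22 such genes 21 had a region, and an OPC call was present at 14 of them and an OL call at 20. Of all genes with a region, 57.3% have an OPC call and 94.8% an OL call. At the highest region 9 had a log2 ratio of 1 or more and 3 had -1 or less, beside the 34.7% and 4.19% of all genes, and the median was 0.63. Pdgfra, the progenitor receptor whose gene SoxD and SoxE factors bind, had 8.30 in OPC and 24.3 in OL there. Its region nearest the start went the other way, with 7.60 in OPC, 2.33 in OL and an OPC call alone. Over the 7 Pdgfra regions the median log2 ratio was 0.06, with 6 called in OPC and 4 in OL. Mbp, a myelin protein gene, had 9 regions, all called in OL and 2 in OPC. Hes5, a Notch target that holds back differentiation, had 3.64 and 10.7 at its highest region. Among corepressor genes, Ctbp2 had 5 regions and 8.77 and 11.8 at the highest, and Ctbp1 had 2.76 and 10.0. Those at -1 or less were Sox8, Hapln1, a hyaluronan link protein gene (45.0 and 17.8), and Ccnd1, the cyclin D1 gene (4.95 and 1.57 at its start). Bcl11b, a cortical neuron factor gene, had 7 regions, 5 called in OPC and 6 in OL, with 2.58 and 14.1 at the highest. Also at 1 or more was Myrf, the myelin regulatory factor gene, with 1.00 and 6.13.

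Sox6 also held more regions than each of 16 other genes of nuclear regulators, most of them long, which had between 4 and 24 each. All 16 had a call in each library, where 57.3% of all genes with a region have an OPC call and 94.8% an OL call. Rora had 24 regions with 8 called in OPC, Tcf4 had 23 with 9, Auts2 22 with 9, Nfia 16 with 6 and Tcf7l2, a Wnt effector, 15 with 4. The median log2 ratio over a gene's regions was 0.58 in the middle of these 16 genes, beside 0.60 at Sox5 and 0.57 at Sox6. In the middle of all genes it was 0.69. At the highest region 9 of the 16 had a log2 ratio of 1 or more, beside the same 34.7%. These 16 genes had a median of 10 regions, against 2 over all genes. Their highest region was thus picked from more regions, and the shares are not like for like.

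The genes most like each were taken among the 293 genes with 10 regions or more, by the distance between medians of log2(signal + 1) in OPC and in OL, which uses 2 libraries only. Those nearest to Sox6 were Lass6 (0.03), Ncald (0.04), Zbtb20 (0.07), E130309F12Rik (0.08) and Nlgn1 (0.09). Ncald had 22 regions, 11 called in OPC and 19 in OL, and Nlgn1 27, 13 and 20. Those nearest to Sox5 were Kirrel3 (0.01), AJ237917 (0.03), Zswim6 (0.03), Fars2 (0.05) and Rora (0.06). Likeness on medians does not carry over to single regions: Kirrel3 had 11 of 21 regions at a ratio of 1 or more, where Sox5 had 2 of 15.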

How the data were processed

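Nkx2.2 ChIP-seq was compared between 1 OPC library and 1 OL library of cultured mouse cells. The submitters' processing notes name BWA, MACS 1.4.2 and mm9. The authors merged the called intervals of both libraries into regions and marked in which library each was called, per the file headers. Average and highest signal per region are the deposited values. Not given in the sources used here are their scaling, the calling threshold, any read extension and how the input was used. Depth is unknown, since signal gives no read counts. Coordinates are printed as deposited, with the counting base of region starts unknown.

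Regions whose gene list names Sox5 or Sox6 were taken, with deposited distances from the gene start to the middle of the region. Ratios are log2((OL + 1) / (OPC + 1)), with no filter. Each state has 1 library, so there are no tests or p-values. Shares carry exact 95% intervals. All 37271 regions give the background. The computation of ratios and counts was tested on simulated data. Alternatives were another pseudocount, scaling, highest signal, regions inside the gene, and stricter calls. Printed in full were, per gene, the region nearest the start, the 5 highest in each library, the 5 largest and smallest ratios, and those listed at 0. Of the gene lists, those with the 5 most regions, the SoxD and SoxE genes, and those past a log2 ratio of 1 or -1 at the highest region could be named, at most 12 a list, leaving out those weakest at that region. Some members of these lists are not reported here. The members, lists and rules were chosen with earlier results of these data known. Promoter windows and current gene names come from RefSeq tables of GRCm38.p6, and no coordinates were converted between builds. Python 3.11.15, pandas 2.3.3, NumPy 2.4.6 and SciPy 1.17.1 were used.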

Additional observations from a re-analysis of the deposited data

How the results depend on the processing

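The medians of both genes stayed above 0 under every setting tried but one: with the median of all regions subtracted they were -0.13 at Sox5 and -0.16 at Sox6. Subtracting the median of regions called in both, 0.24, gave 0.36 and 0.33. A pseudocount of 0.1 gave 0.77 and 0.72, one of 5 gave 0.31 and 0.28, and highest signal gave 0.84 and 0.68. Over all regions the median was 0.49 after the subtraction for regions called in both. It was 0.90 and 0.41 with pseudocounts of 0.1 and 5, and 1.00 with highest signal. Both genes lay below the median of all regions in each of these settings. Keeping regions with a signal of 5 or more in either library gave 0.14 over 8 Sox5 regions and 0.64 over 23 Sox6 regions. The values of all regions under this filter were not computed. At the start the ratio of Sox5 was 1.00 with a pseudocount of 0.1, 0.45 with 5, 1.00 with highest signal and 0.57 after subtraction of the median of regions called in both, and that of Sox6 was 1.05, 0.47 and 0.61 under the first, second and last of these.

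Sox5 regions at 1 or more numbered 5 with a pseudocount of 0.1, 1 with 5 and 7 with highest signal. With a signal of 5 or more, 1 of 8 Sox5 regions and 6 of 23 Sox6 regions were at 1 or more. Of all regions, 46.3% were at 1 or more with a pseudocount of 0.1, 8.72% with 5 and 52.2% with highest signal. At -1 or less the Sox5 regions numbered 1 after subtraction of the median of regions called in both, 2 after that of all regions and 1 with highest signal. The shares of all regions were 10.1, 17.5 and 10.8% in the same order. Sox6 regions at 1 or more numbered 0 with a pseudocount of 5, and 3 and 1 after the 2 subtractions. Those at -1 or less numbered 1 with a pseudocount of 5 and 7 after subtraction of the median of all regions. Of all regions, 27.2% and 13.2% were at 1 or more after the 2 subtractions. With a pseudocount of 5, 8.72% were at 1 or more and 0.982% at -1 or less. Requiring a signal of 5 or more for a call left Sox5 with 4 OPC calls, 6 OL calls and 2 in both. It left Sox6 with 10 OPC calls, 20 OL calls and 7 in both. Shares of all regions under this stricter call were not computed, so these drops cannot be set against that of all regions. Cutting OL calls to the 14370 strongest, which is 38.6% of all regions, left 4 at Sox5, 3 of them in both. It left 13 at Sox6, 10 of them in both. The highest region of each gene in each library was the same by highest signal, with a tie at 30 in OL between the Sox6 regions at 406287 and 556886 bp. The cause of these shifts was not tested. Depth is unknown, and it limits what can be said of weak regions. Leaving out a replicate was not possible, with 1 library per state. No paired analysis was possible because each state has 1 library and no test was run.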
